A study of Danio rerio with 6 samples.

Results

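Wnt proteins are secreted ligands that bind Frizzled receptors and the co-receptors Lrp5 and Lrp6 on the receiving cell. In the canonical branch this keeps beta-catenin from being degraded, and beta-catenin then works with Tcf/Lef factors to switch on target genes, several of which encode inhibitors of the same pathway. In the amputated zebrafish fin, Wnt/beta-catenin signalling is needed for the blastema to form and for outgrowth, while excess Wnt5b impairs regeneration. Sonic hedgehog comes from the basal epidermis of the same regenerate.

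The genes described here are the Wnt ligands, receptors, secreted agonists and antagonists, intracellular transducers and feedback or target genes in a table of read counts. They were chosen by gene symbol alone: symbols that begin with wnt and a digit, fzd, dkk, axin, sfrp, rspo or tcf7, and 11 single genes. The rule matched 69 rows, with wnt8a on more than 1, and thus 68 distinct genes among the 28531 distinct names of the table. They are 25 ligands, 15 receptors or co-receptors, 4 secreted agonists, 11 secreted antagonists, 7 transducers or Tcf/Lef factors and 6 feedback or target genes. Of the 68 genes, 53 passed the filter on low counts and were tested, and the other 15 are described by their counts.

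RNA came from caudal fin regenerates of shha:GFP zebrafish, a line whose GFP marks shha-expressing cells, and all 6 libraries share this transgene, the amputation and the injection. At 4 days post amputation the fish received, by intraperitoneal injection, either buffer (PEG-400, propylene glycol and Tween-80; 3 libraries, called vehicle) or 40 mg/kg BMS-833923 in that buffer (3 libraries, called BMS), and fins were taken 5 hours later. BMS-833923 inhibits Smoothened, the membrane protein that carries the Hedgehog signal into the cell, and the stated purpose was to find targets downstream of Sonic hedgehog. Each library pools 4 regenerates, cut so as to keep the shha:GFP domains and the tissue distal to them, and the labels give no age or sex. The compound is written with other final digits in the labels of the BMS libraries 3 and 4, whereas the design text names 1 compound, and all 3 were treated as 1 group here. The labels do not say whether the pools came from separate clutches or days, so p-values of the fit on group alone measure the spread between pools. In fits with the replicate number as a block, they measure the spread of the differences between same-number libraries.

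The libraries hold 16978747 to 22659275 counted reads, of which the 68 Wnt pathway genes took 0.221% to 0.327%. The highest level that a count of 0 still allows was 0.132 to 0.177 CPM (counts scaled to the library size), depending on the library. This takes 3 counts over the library total, before the TMM scaling used for the levels below, and covers counting error only. The BMS library 2 was the shallowest and had the highest share of ribosomal protein gene reads, 8.30% against 3.76% to 6.27% in the others. Markers fit a fin regenerate: the blastema gene msx1b was at 109.1 to 178.4 CPM and the epidermal gene krt4 at 3447 to 6916 CPM, whereas summed liver markers were at 0.396 to 0.756 CPM and 6 of 7 nerve and Schwann cell markers were detected, none with a mean above 1 CPM. In bulk tissue, fewer cells of a type and less RNA per cell cannot be told apart.

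Levels are given as CPM of the TMM-scaled library size, always in the order of libraries 2, 3 and 4, and levels of different genes are not compared because they were not scaled by transcript length. Hedgehog target genes serve as the check on the treatment. The target gene hhip, which encodes a membrane protein that binds Hedgehog ligands, was at 15.1, 13.1 and 9.40 CPM in vehicle and at 1.97, 3.99 and 4.16 CPM in BMS, so the groups did not overlap. Within the same-number pairs the log2 ratio of BMS to vehicle was -2.88, -1.69 and -1.16. DESeq2 called hhip lower with the replicate number as a block (log2 fold change -1.90 ± 0.35, SE, adjusted p = 0.000112) and without it (adjusted p = 0.0256). The edgeR quasi-likelihood test did not, without the block (-1.88 ± 0.36, adjusted p = 1) or with it (-1.87 ± 0.31, adjusted p = 0.341).

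No Wnt pathway gene passed the test. The edgeR quasi-likelihood test called 0 of the 53 tested Wnt genes and 0 of all 18541 rows tested (0%), at an adjusted p under 0.05. At an unadjusted p under 0.05 it held 0 of the 53, against 198 of all rows (1.07%). With the replicate block it again called 0 of the 53 and 0 of all rows (0%), and DESeq2 with the block called 0 of the 48 Wnt genes to which it gave an adjusted p, against 72 of 14946 rows (0.482%). The smallest adjusted p among the Wnt genes was 0.616 by edgeR with the block, for dkk1a, and 0.521 by DESeq2 with the block, for lrp5. In the tested set 0 genes had groups that did not overlap in either direction, where 1.76% of all rows were separated with BMS lower and 2.15% with BMS higher.

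Below that threshold, most Wnt genes had small negative values. In the fit without the block, 37 of the 53 had a negative log2 fold change and the median was -0.19, against 48.5% of all rows and a median of 0.01. Without the BMS library 4 the median of the Wnt genes was -0.04 with 28 negative, where 44.4% of all rows were negative. Leaving out the vehicle library 3 gave -0.06 with 33 negative (45.1% of all rows). Leaving out the BMS library 3 gave -0.38 with 37 negative (51.4% of all rows). Leaving out the vehicle library 4 gave -0.30 with 39 negative (47.7% of all rows). The median of all rows lay between -0.02 and 0.04 in these fits. In 18 of the 53 genes BMS was lower in 3 of 3 same-number pairs, against 17.4% of all rows, and in 1 gene, sfrp1b, it was higher in 3 of 3, against 14.1% of all rows. In the fit with the block, 11 Wnt genes were lower at an unadjusted p under 0.05 (3.96% of all rows) and 1 was higher (3.09% of all rows). These shares describe the genes and carry no test.

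In 47 of the 53 genes the difference of the group means was smaller than the range of the 3 vehicle libraries, on the log2 scale, the same share as over all rows (88.7%). This range includes what same-number libraries share. The median coefficient of variation over the vehicle libraries was 25.8% for the Wnt genes and 21.1% for all rows. Among the 53, 31 were lower in pair 2, 39 in pair 3 and 38 in pair 4, where the shares over all rows were 50%, 51% and 56.4%. The median log2 ratio of the Wnt genes was -0.19 in pair 2, -0.14 in pair 3 and -0.30 in pair 4, beside 0, -0.01 and -0.06 over all rows.

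**Figure D1:**
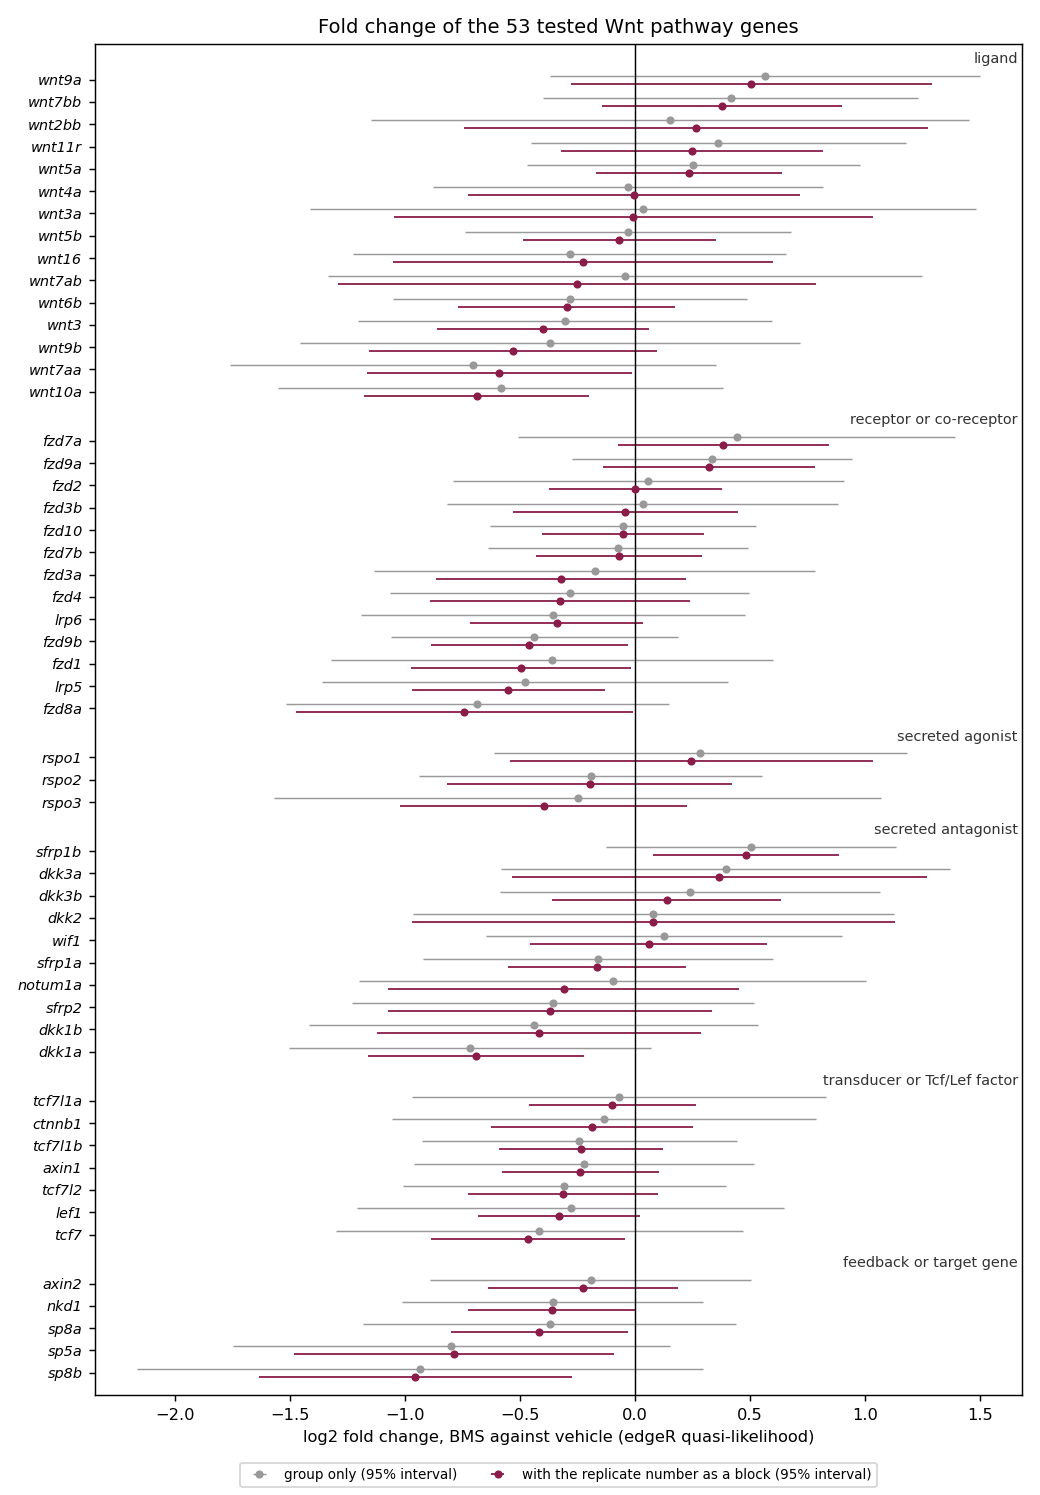
Log2 fold change of BMS against vehicle for the 53 tested Wnt pathway genes (x axis, edgeR quasi-likelihood), grouped by role, from the fit on group alone (grey) and the fit with the replicate number as a block (dark red), each with its 95% interval. All grey intervals cross 0; with the block 12 intervals do not, and of these only that of sfrp1b lies above 0.

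Ligand genes lay on both sides of 0: of 15 tested, 9 had negative and 6 positive log2 fold changes, from -0.71 for wnt7aa to 0.56 for wnt9a, with a median of -0.03. The gene wnt10a encodes a ligand of the beta-catenin branch expressed in the fin regenerate. It was at 9.17, 17.1 and 12.9 CPM in vehicle and at 4.16, 14.0 and 7.79 CPM in BMS. BMS was lower in each pair, by a log2 ratio of -1.12, -0.28 and -0.72, while the groups overlapped because the BMS library 3 lay above 2 vehicle libraries. The log2 fold change was -0.58 ± 0.43 (SE) without the block and -0.69 ± 0.21 with it (95% interval -1.18 to -0.20, adjusted p = 0.629 by edgeR). The ligand gene wnt7aa was at 4.63, 14.4 and 18.3 CPM in vehicle and at 5.29, 7.27 and 10.3 CPM in BMS. Its lowest value was thus in a vehicle library, and pair 2 went the other way (0.19, against -0.98 and -0.83 in pairs 3 and 4).

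The ligand genes of the beta-catenin-independent branch did not share 1 direction. The level of wnt5a was 200.2, 163.7 and 125.1 CPM in vehicle and 265.4, 149.6 and 167.4 CPM in BMS. It was higher in BMS in pairs 2 and 4 and lower in pair 3, with a log2 fold change of 0.25 ± 0.32 (adjusted p = 1 by edgeR), which turned to -0.03 without the BMS library 2. The gene wnt5b was at 137.6, 150.7 and 106.4 CPM in vehicle and at 97.1, 180.0 and 108.7 CPM in BMS. Both groups covered much the same range, with a mean of 131.6 ± 22.8 CPM (SD, n = 3) in vehicle and 128.6 ± 44.9 CPM in BMS. With the block the 95% interval of the log2 fold change was -0.49 to 0.35 for wnt5b and -0.17 to 0.64 for wnt5a.

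The log2 fold changes of the other tested ligand genes also had both signs. The gene wnt3a was at 1.02, 2.19 and 0.634 CPM in vehicle and at 0.302, 2.28 and 1.25 CPM in BMS, with pair ratios of -1.497, 0.05 and 0.89. The sign of its log2 fold change (0.03 ± 0.65) depended on the setting. The gene wnt9a was at 1.51, 2.74 and 2.30 CPM in vehicle and at 3.86, 4.18 and 1.74 CPM in BMS, so that 2 BMS libraries stood above the vehicle group and 1 within it. The other tested ligand genes, wnt2bb, wnt3, wnt4a, wnt6b, wnt7ab, wnt7bb, wnt9b, wnt11r and wnt16, had log2 fold changes between -0.37 (wnt9b) and 0.42 (wnt7bb). The gene wnt11r, at 16.2, 17.2 and 14.5 CPM in vehicle and 32.6, 16.6 and 12.5 CPM in BMS, was high in the BMS library 2 alone.

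Among the receptor genes, 9 of 13 tested had negative log2 fold changes and 4 positive ones, with a median of -0.18. The co-receptor gene lrp5 was at 74.1, 88.4 and 47.8 CPM in vehicle and at 38.6, 80.2 and 31.8 CPM in BMS. Each BMS library was below its vehicle partner, with the smallest difference in pair 3 (-0.14, against -0.94 and -0.59 in pairs 2 and 4). With the block its log2 fold change was -0.55 ± 0.18 (adjusted p = 0.648), and without both libraries of number 3 it was -0.79 and passed (adjusted p = 0.02897 by edgeR with the block, where 392 of all rows passed, 206 of them lower). The related co-receptor gene lrp6 was at 42.4, 30.1 and 18.9 CPM in vehicle and at 29.4, 27.03 and 14.8 CPM in BMS, also lower in each pair (-0.53, -0.15 and -0.35).

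Of the Frizzled genes, which encode the receptors themselves, 3 had an unadjusted p under 0.05 with the block. The gene fzd9b was at 31.1, 33.2 and 27.1 CPM in vehicle and at 29.1, 18.7 and 19.7 CPM in BMS. Only the BMS library 2 lay inside the vehicle range (log2 fold change -0.46 ± 0.19 with the block, adjusted p = 0.687). The gene fzd8a was at 3.07, 3.92 and 3.89 CPM in vehicle and at 3.40, 1.76 and 1.70 CPM in BMS, and again the BMS library 2 lay inside the vehicle range. The gene fzd1 was at 19.9, 34.4 and 24.1 CPM in vehicle and at 10.5, 34.6 and 15.8 CPM in BMS, with 2 BMS libraries below the vehicle range and 1 just above it. Its pair 3 ratio was 0.01, against -0.92 in pair 2 and -0.61 in pair 4.

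Other Frizzled genes had values near or above 0. The gene fzd7a was at 26.3, 24.6 and 12.5 CPM in vehicle and at 46.0, 23.7 and 16.5 CPM in BMS. Its log2 fold change of 0.44 ± 0.42 turned to -0.07 without the BMS library 2. The levels of fzd7b were 64.7, 62.3 and 52.4 CPM in vehicle and 58.4, 52.1 and 59.9 CPM in BMS, with a 95% interval of -0.43 to 0.29 with the block. The remaining tested genes fzd2, fzd3a, fzd3b, fzd4, fzd9a and fzd10 had log2 fold changes between -0.28 (fzd4) and 0.33 (fzd9a).

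R-spondins, encoded by the rspo genes, amplify the signal by keeping Frizzled receptors on the cell surface. The gene rspo2 was at 3.80, 4.51 and 3.01 CPM in vehicle and at 4.23, 2.57 and 3.15 CPM in BMS. For rspo3 the levels were 5.46, 2.28 and 2.46 CPM in vehicle and 5.82, 1.52 and 1.41 CPM in BMS, so that both libraries of number 2 stood above the rest. For rspo1 they were 1.76, 3.25 and 2.30 CPM in vehicle and 4.31, 2.76 and 1.94 CPM in BMS. All 3 had overlapping groups, with log2 fold changes of -0.19 ± 0.34, -0.25 ± 0.59 and 0.28 ± 0.40.

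Secreted antagonist genes split evenly, with 5 of 10 negative and 5 positive, from -0.72 for dkk1a to 0.50 for sfrp1b. Dkk1 blocks Lrp5 and Lrp6, and its gene is itself a target of beta-catenin signalling. The gene dkk1a was at 5.51, 8.35 and 11.9 CPM in vehicle and at 4.23, 4.798 and 6.54 CPM in BMS. All BMS libraries were below their vehicle partner (-0.37, -0.79 and -0.85), and only the BMS library 4 lay inside the vehicle range. Its log2 fold change was -0.72 ± 0.35 without the block and -0.69 ± 0.21 with it (95% interval -1.16 to -0.22, adjusted p = 0.616 by edgeR). The duplicate dkk1b was at 3.27, 4.13 and 8.40 CPM in vehicle and at 4.76, 2.28 and 4.64 CPM in BMS, lower in pairs 3 and 4 and higher in pair 2, and without the vehicle library 4 its log2 fold change turned from -0.44 to 0.07.

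Secreted Frizzled-related proteins and Wif1 bind Wnt ligands outside the cell. The gene sfrp1b was the 1 tested Wnt gene that was higher in BMS in 3 of 3 pairs. Its levels were 63.8, 64.7 and 78.4 CPM in vehicle and 118.3, 73.2 and 102.0 CPM in BMS, so 2 BMS libraries stood above the vehicle range. The log2 fold change was 0.50 ± 0.28 without the block and 0.48 ± 0.18 with it (95% interval 0.08 to 0.89, adjusted p = 0.680 by edgeR). Its duplicate sfrp1a was at 18.9, 27.7 and 15.1 CPM in vehicle and at 14.97, 25.6 and 14.5 CPM in BMS, slightly lower in each pair (-0.34, -0.11 and -0.06). The low gene sfrp2 was at 1.07, 1.52 and 1.82 CPM in vehicle and at 0.832, 1.28 and 1.29 CPM in BMS. The gene wif1 was at 14.4, 11.97 and 10.7 CPM in vehicle and at 19.4, 8.17 and 13.0 CPM in BMS, with the 2 extremes both in the BMS group. Notum strips Wnt proteins of the lipid they need for binding, and notum1a was at 5.46, 6.74 and 4.797 CPM in vehicle and at 5.22, 8.93 and 1.78 CPM in BMS, again with both extremes in BMS. The other tested genes placed in this role with the dkk family, dkk2, dkk3a and dkk3b, had positive log2 fold changes of 0.08 ± 0.47, 0.39 ± 0.44 and 0.24 ± 0.37. Of these, dkk2 had 5 to 24 reads per library and dkk3a 10 to 24, so their signs in the even split are uncertain.

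**Figure D2:**
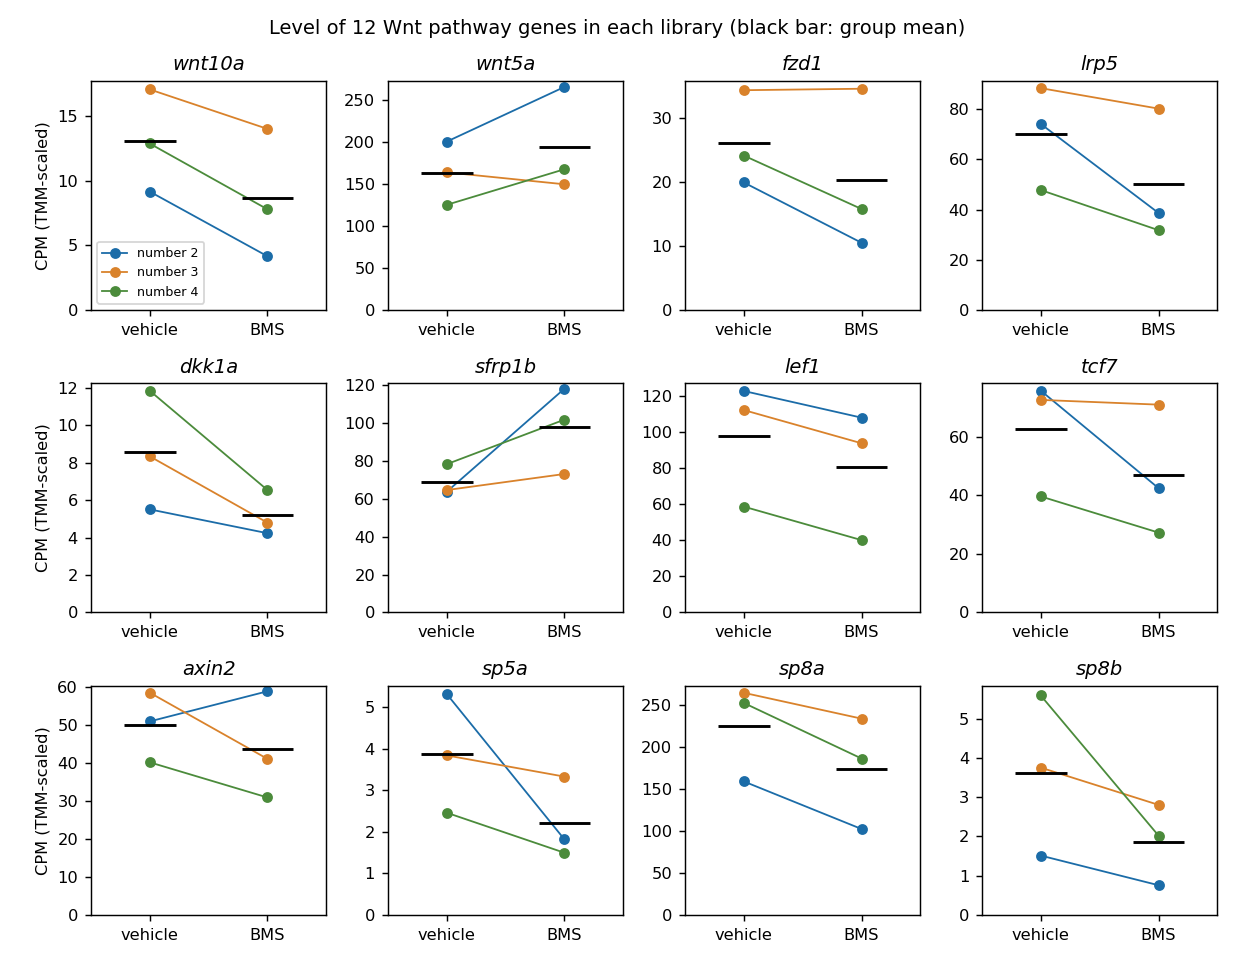
Level of 12 Wnt pathway genes in each library (y axis, CPM of the TMM-scaled library size, from 0), with vehicle on the left and BMS on the right, lines joining libraries of the same number and black bars for group means. In wnt10a, lrp5, dkk1a, lef1, tcf7, sp5a, sp8a and sp8b the 3 lines go down, in sfrp1b they go up, and in all 12 panels the groups overlap.

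All 7 transducer and Tcf/Lef genes had negative log2 fold changes, from -0.42 for tcf7 to -0.07 for tcf7l1a, with a median of -0.24. Without the BMS library 4, those of ctnnb1, lef1, axin1 and tcf7l1a turned positive (0.16, 0.04, 0.01 and 0.21). The gene lef1 encodes a Tcf/Lef factor and marks basal epidermis in the regenerate. It was at 123.0, 112.4 and 58.8 CPM in vehicle and at 108.2, 94.0 and 40.2 CPM in BMS, lower in each pair by -0.19, -0.26 and -0.55. The drop from the other libraries to those of number 4 was larger than the difference within any pair. The log2 fold change was -0.28 ± 0.42 without the block and -0.33 ± 0.15 with it (adjusted p = 0.687 by edgeR).

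The activating factor gene tcf7 was at 75.7, 72.5 and 39.6 CPM in vehicle and at 42.4, 70.9 and 27.3 CPM in BMS, with a pair 3 ratio of -0.03. With the block its log2 fold change was -0.47 ± 0.19 (adjusted p = 0.687 by edgeR). The gene tcf7l2 was at 52.8, 51.4 and 33.2 CPM in vehicle and at 31.5, 49.5 and 29.9 CPM in BMS. For tcf7l1a, which encodes a factor that mostly represses targets, the levels were 41.2, 32.2 and 18.7 CPM in vehicle and 42.7, 28.5 and 16.5 CPM in BMS. The beta-catenin gene ctnnb1 was at 1077, 978.8 and 564.1 CPM in vehicle and at 1099, 860.7 and 425.1 CPM in BMS, with a 95% interval of -0.63 to 0.25 with the block. The scaffold gene axin1, which helps degrade beta-catenin, was at 56.4, 52.6 and 33.9 CPM in vehicle and at 48.4, 47.8 and 26.4 CPM in BMS. In all 5 of these genes the lowest value of each group was in number 4. The remaining member, tcf7l1b, had a log2 fold change of -0.24 ± 0.31 and was lower in 3 of 3 pairs.

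Of the 10 basal epidermis markers, 7 had the lowest level of each group in number 4, whereas krtt1c19e, krt94 and itga6b did not. Number 4 was also lowest in both groups for 4 of 4 markers of actinotrichia-forming cells, 4 of 6 blood markers and 6 of 13 fin mesenchyme and blastema markers. In each other list this was so for 1 or 2 markers. The share over all rows was not taken. The hemidesmosome collagen gene col17a1b, among the 7 basal epidermis markers, was at 785.1 and 629.5 CPM in the vehicle and BMS libraries 4, against 1399 to 1671 CPM in the other 4 libraries. For and1, a gene of the actinotrichia fibres, the values were 1860 and 1235 CPM against 3332 to 6530 CPM. Over whole lists, the summed level of the 10 basal epidermis markers was 9723, 8984 and 9087 CPM in vehicle and 13306, 8565 and 9152 CPM in BMS, lowest in number 3. Its largest part was krt94, at 5172, 4573 and 6677 CPM in vehicle and 8498, 4137 and 7090 CPM in BMS. This gene was also lowest in number 3. The summed level of the 4 actinotrichia markers was 9596, 6932 and 2900 CPM in vehicle and 10486, 4909 and 2238 CPM in BMS, lowest in number 4. Fin mesenchyme and blastema markers (13 in the table, 7 of 12 tested negative) summed to 2344 to 3756 CPM in vehicle and 1837 to 2943 CPM in BMS. Superficial epidermis markers (10 in the table, 9 of 9 tested positive) summed to 21781 to 27167 CPM in vehicle and 20049 to 34909 CPM in BMS. Osteoblast markers (10 of 11 in the table, 8 of 8 tested negative) summed to 3779 to 4742 CPM in vehicle and 2949 to 5638 CPM in BMS. The median log2 fold change of the osteoblast list was -0.07, and 2 of its tested genes, sp7 and runx2b, were lower in each pair. Their pair ratios were -1.23, -0.15 and -0.44 for sp7 and -1.49, -0.26 and -0.55 for runx2b. With the block their log2 fold changes were -0.59 ± 0.22 and -0.72 ± 0.25. Without the block, the other tested osteoblast markers lay between -0.19 (runx2a) and -0.03 (alpl). For the superficial epidermis list the median was 0.31, and 4 were higher in each pair. The largest part of the superficial epidermis sum was krt5 (12271 to 25135 CPM across libraries), and of the osteoblast sum col10a1a (2689 to 5318 CPM). Of the 10 superficial epidermis markers, krt5 was the 1 lowest in number 4 of both groups. Its log2 fold change was 0.04 ± 0.38. In both epidermal sums the largest part was thus a single keratin gene, and which layer krt5 and krt94 mark here was not tested. In the fin mesenchyme sum the largest parts were col6a1 and tnc (313.1 to 1549 CPM). Blood markers (6 of 6 negative) summed to 19.2 to 212.5 CPM in vehicle and 55.0 to 83.6 CPM in BMS. Their median log2 fold change was -0.66, but 0 of them were lower in each pair, and all were higher in BMS in pair 4. Endothelial, pigment cell, muscle and leukocyte markers each summed to at most 226.6 CPM in any library. The part of these cell types in the values of the Wnt genes was not tested.

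The feedback and target genes had the lowest median of the 6 roles, -0.37, and all 5 tested members were negative. The roles did not overlap, so target genes such as dkk1a and dkk1b were counted as antagonists. This median and count thus depend on how the roles were assigned. A longer list of target genes outside the rule was more mixed. Of 14 tested, 9 were negative and 5 positive, with a median of -0.10. The zinc finger gene sp5a, a direct Wnt target, was at 5.31, 3.84 and 2.46 CPM in vehicle and at 1.81, 3.33 and 1.49 CPM in BMS. The pair ratios were -1.503, -0.20 and -0.68, and the BMS library 3 lay inside the vehicle range. Its log2 fold change was -0.80 ± 0.43 without the block and -0.79 ± 0.31 with it (95% interval -1.48 to -0.09, adjusted p = 0.687 by edgeR).

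Sp8 factors act in the epidermis of growing limbs and fins. The gene sp8b had the lowest log2 fold change of all 53 genes, -0.94 ± 0.55 without the block and -0.96 ± 0.30 with it (95% interval -1.64 to -0.28, adjusted p = 0.629 by edgeR). It was at 1.51, 3.75 and 5.59 CPM in vehicle and at 0.756, 2.80 and 2.02 CPM in BMS. Each BMS library was below its partner, while both libraries of number 2 were low, so the groups overlapped. The gene sp8a was at 158.9, 264.4 and 252.4 CPM in vehicle and at 102.3, 233.6 and 186.2 CPM in BMS, with the same order of libraries in both groups. Its pair ratios were -0.64, -0.18 and -0.44, and its log2 fold change with the block was -0.42 ± 0.17 (adjusted p = 0.687 by edgeR).

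The feedback inhibitor genes axin2 and nkd1, both read as reporters of beta-catenin signalling, had smaller values. The gene axin2 was at 51.0, 58.6 and 40.2 CPM in vehicle and at 58.9, 41.1 and 30.9 CPM in BMS. It was higher in BMS in pair 2 (0.21) and lower in pairs 3 and 4 (-0.51 and -0.38), and with the block the 95% interval was -0.64 to 0.19. The gene nkd1 was at 35.6, 38.9 and 25.7 CPM in vehicle and at 24.6, 32.6 and 20.9 CPM in BMS, lower in each pair (-0.53, -0.25 and -0.30). Its log2 fold change with the block was -0.36 ± 0.16 (adjusted p = 0.687 by edgeR). For comparison within the same pairs, the Hedgehog target gli1 had ratios of -1.35, -0.70 and -0.71 and ptch1 of -1.29, -0.48 and -0.84. Some Wnt genes were lower than both gli1 and ptch1 within a pair: wnt7ab (-2.26), sp5a and wnt3a in pair 2, fzd8a (-1.12), wnt7aa, dkk1b, fzd9b, rspo2 and dkk1a in pair 3, and sp8b (-1.43), notum1a (-1.39), fzd8a, wnt16, dkk1a and dkk1b in pair 4. Of these, sp8b and notum1a in pair 4 were also lower than hhip. Of the Wnt genes in this list, only sp5a, fzd9b, dkk1a and sp8b were lower in each pair, as gli1, ptch1 and hhip were. The others were higher in BMS in another pair, such as wnt7ab (0.29 and 0.47 in pairs 3 and 4) and wnt16 (0.95 in pair 3). In the BMS library 2, wnt7ab had 9 reads and wnt3a had 4. The genes of this list were picked by their values in single pairs. The share of all rows lower than gli1 and ptch1 within a pair was not taken, so the list does not set Wnt genes apart from other genes.

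**Figure D3:**
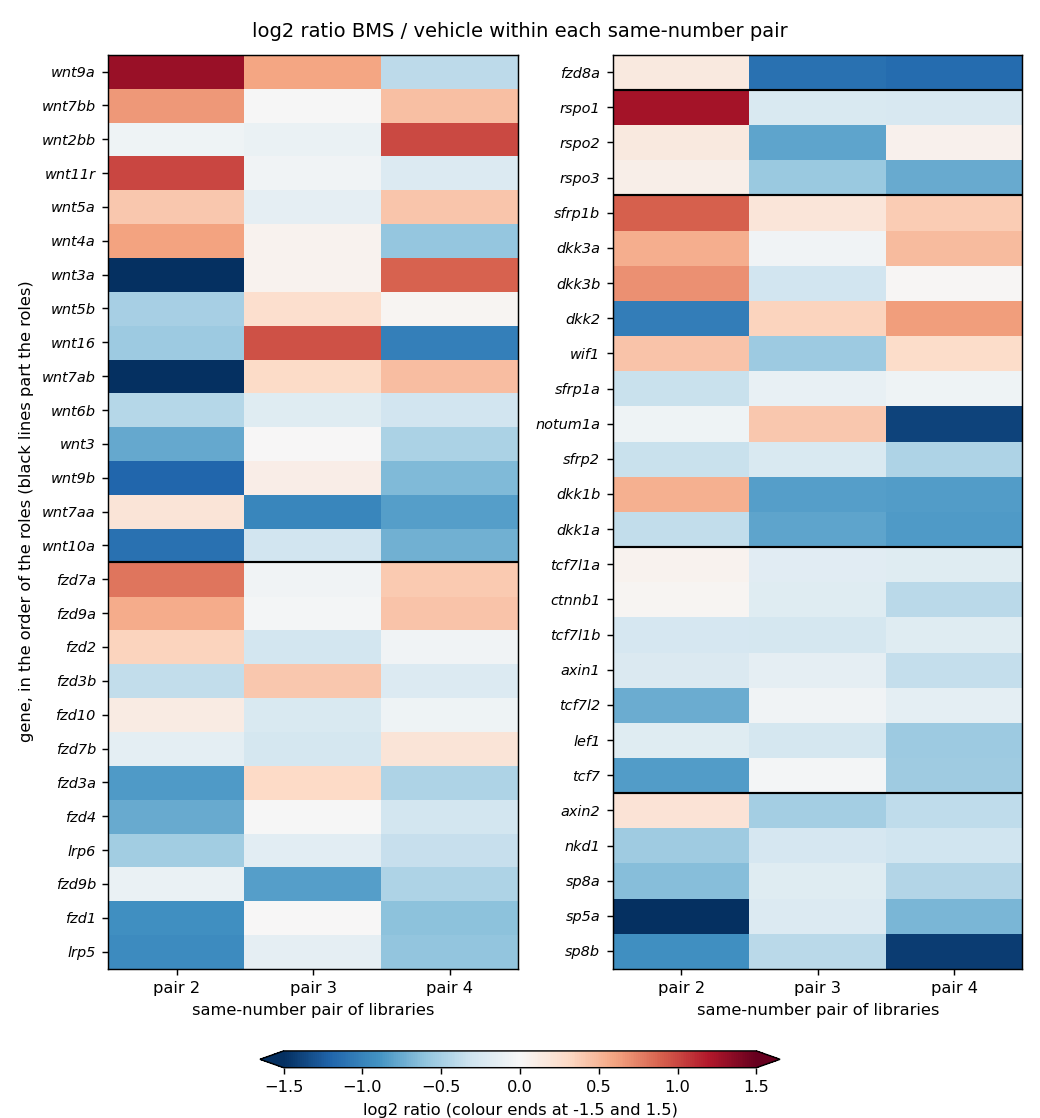
Log2 ratio of BMS to vehicle within each same-number pair of libraries (colour, blue for BMS lower and red for BMS higher, columns pairs 2, 3 and 4) for the 53 tested Wnt pathway genes in the order of their roles. The lowest block, the feedback and target genes, is blue in all cells but that of axin2 in pair 2, and the ligand genes at the top left are mixed.

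Ratios were also taken between related genes whose symbols differ only in the last letter. The raw ratio of such genes within a library does not depend on the scaling. Here a count of 2, scaled to the library size, was added to both genes before the ratio. This can shift the ratio where a gene has few reads. In all, 11 pairs of genes with both tested were compared after their values had been seen. The log2 ratio of fzd9a to fzd9b was -2.02, -1.99 and -1.75 in vehicle and -1.36, -1.19 and -0.87 in BMS. The groups did not overlap, and the ratio was higher in BMS by 0.66, 0.79 and 0.89 in the 3 pairs (mean 0.78 ± 0.11, SD). For wnt9a to wnt9b the ratio was -1.43, -1.44 and -1.39 in vehicle and 1.05, -0.94 and -1.12 in BMS, also without overlap, with a change of 1.08 on average and 0.38 without number 2. For sfrp1b to sfrp1a the changes were 1.23, 0.29 and 0.44. For fzd7a to fzd7b they were 0.95, 0.20 and 0.20, and for sp8a to sp8b 0.28, 0.23 and 0.99. For wnt7aa to wnt7ab the direction differed between pairs (2.45, -1.27 and -1.30). The exact two-sided permutation test gave p = 0.1 for fzd9a to fzd9b and for wnt9a to wnt9b, which is the smallest p that 3 libraries against 3 allow, and p = 0.55 adjusted over the 11 ratios by the Benjamini-Hochberg method. This test could not reach a p under 0.05 for any ratio and did not use the same-number pairs. It thus cannot decide whether a ratio changed.

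**Figure D4:**
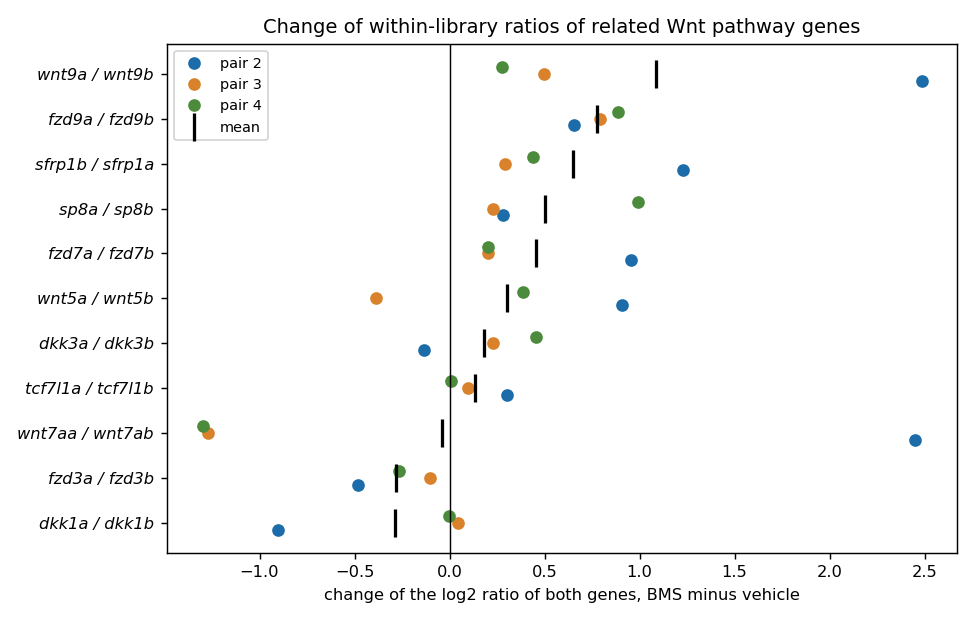
Change of the within-library log2 ratio of related Wnt pathway genes, BMS minus vehicle (x axis), for 11 pairs of genes (y axis), with a dot for each same-number pair of libraries and a black bar for the mean. The dots of fzd9a / fzd9b lie close together, from 0.66 to 0.89, and those of wnt7aa / wnt7ab lie on both sides of 0.

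The 15 Wnt genes that did not pass the filter were at or near the limit of detection. The genes wnt6a and wnt8a had 0 reads in every library, which allows at most 0.132 to 0.177 CPM of the library total before TMM scaling. On the TMM scale, 3 reads were 0.119 CPM in the vehicle library 4 and 0.227 CPM in the BMS library 2. The others, wnt1, wnt2, wnt2ba, wnt4b, wnt7ba, wnt8b, wnt10b, wnt11, fzd5, fzd8b, rspo4, sfrp5 and sp5l, had at most 12 reads in any library. In CPM the groups did not overlap in 3 of them, 1 with BMS lower and 2 with BMS higher. Over the 7477 rows with a read that did not pass the filter and had at most 12 reads in any library, the shares were 2.65% and 3.66%. The counts of wnt1 were 0, 2 and 3 reads in vehicle and 3, 8 and 10 reads in BMS, those of wnt4b were 4, 3 and 2 against 6, 7 and 7 reads, and those of wnt10b were 4, 4 and 6 against 2, 3 and 4 reads. The target gene sp5l had 2, 0 and 0 reads in vehicle and 0, 1 and 1 reads in BMS. In the fit with no filter none of the 13 with a read passed (adjusted p = 1 by edgeR for each).

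Beyond the genes of the rule, 107 further pathway genes were listed by their known role, of which 95 were found in the table and 88 were tested. The edgeR quasi-likelihood test called 0 of the 88, with or without the block. Negative log2 fold changes were found in 65 of the 88 (48.5% of all rows), with a median of -0.16. By class, 7 of 7 receptors and co-receptors, 19 of 26 transducers and destruction complex genes and 12 of 14 nuclear co-factors were negative. So were 12 of 17 planar cell polarity genes, 5 of 7 secreted antagonists and the only tested receptor turnover gene. Other target genes were mixed, with 9 of 14 negative, and both tested secretion genes were positive. BMS was lower in 3 of 3 pairs in 26 of the 88 (17.4% of all rows) and higher in 6 (14.1% of all rows). At an unadjusted p under 0.05 with the block, 8 were lower (3.96% of all rows) and 0 higher (3.09% of all rows). The groups did not overlap in 4 tested genes, with BMS lower in prickle1b, prickle2a and tbx2b and higher in porcnl, which is near the shares over all rows (1.76% and 2.15%).

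Those 8 genes were prickle2a, daam1b, ptk7a, ror1, sost, apcdd1l, pygo2 and tle2a. The planar cell polarity gene prickle2a was at 2.19, 4.00 and 2.38 CPM in vehicle and at 1.36, 1.62 and 0.767 CPM in BMS, so the groups did not overlap. Its log2 fold change was -1.21 ± 0.42 without the block and -1.22 ± 0.30 with it (adjusted p = 0.542 by edgeR), and it passed in the blocked likelihood ratio test of edgeR (adjusted p = 0.042). The Wnt co-receptor gene ptk7a was at 116.3, 139.2 and 69.9 CPM in vehicle and at 74.8, 113.8 and 52.8 CPM in BMS. The secreted inhibitor gene sost was at 59.4, 50.7 and 46.5 CPM in vehicle and at 46.5, 26.98 and 37.9 CPM in BMS, and apcdd1l, of a family of membrane-bound Wnt inhibitors, at 18.5, 20.2 and 9.59 against 13.4, 12.7 and 7.15 CPM. The Wnt5a receptor gene ror1 was at 9.26, 11.2 and 5.63 CPM in vehicle and at 3.18, 10.5 and 3.07 CPM in BMS, and the beta-catenin co-factor gene pygo2 at 31.9, 30.7 and 16.97 against 22.1, 23.8 and 12.9 CPM. The formin gene daam1b and the co-repressor gene tle2a had log2 fold changes of -0.47 ± 0.18 and -0.40 ± 0.17 with the block.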

How the data were processed

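RNA-seq libraries of 6 pools of fin regenerates were compared, 3 vehicle against 3 BMS. The deposited table holds raw read counts in 31901 rows. Per the submitters' processing notes, TopHat2 2.1.1, Bowtie2 2.33, HTSeq 0.6.1, edgeR 4.3.2 and the build GRCz11 were used. For the annotation and the strand setting, the sources used here state nothing, so reads of antisense or overlapping genes cannot be told apart. A second table that the authors deposited holds a normalized signal per gene in 11549 rows, 33 of the Wnt genes among them. It was used for an alternative fit with limma on log2(value + 1).

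Of rows sharing a name (541 names), the row with the highest mean count was kept for the genes described. Counts were scaled by TMM and filtered with filterByExpr, which left 18541 rows, and tested in edgeR 4.0.16 under R 4.3.3 with the robust quasi-likelihood test, two-sided, with Benjamini-Hochberg adjustment over all rows and a threshold of 0.05. Errors of fold changes are SE, and intervals cover 95%. Alternatives were a replicate block, left-out libraries, other filters and scalings, DESeq2 1.42.0, the likelihood ratio test of edgeR and limma-voom (limma 3.58.1). The fit was run on simulated counts, where only the size and sign of planted changes were checked. Those counts had the same dispersion for all genes and no effect of the replicate number. The run therefore does not show how often a change would be called in these data. Floors cover counting error only, and no 2 libraries of the same group agreed within sampling noise (chi-square per degree of freedom at least 32.9). Libraries of different groups were not compared in this way.

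Same-number libraries deviated together from their group means over all tested rows (r = 0.58, 0.55 and 0.62 for numbers 2, 3 and 4, across genes, against -0.50 to -0.16 for other pairings). The numbers were therefore taken as pairs. This pairing was read from the data, since the labels do not say what a number marks.

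The members and lists were chosen with earlier results of these data known. Values per library are given for a list of core pathway genes, for Wnt genes at an unadjusted p under 0.05 with or without the block, and for those with the highest and lowest log2 fold change of each role. Further pathway genes are named where that p was under 0.05 with the block, 8 at most. The genes wnt11r, prickle1b, tbx2b, porcnl, msx1b, krt4, krt5, krt94, sp7, runx2a, runx2b, alpl, col10a1a, col6a1, tnc, col17a1b and and1 were singled out after their values were seen. The related-gene ratios were added after the values had been seen. A promoter motif search was planned and not run, because no promoter sequence was used here. One result of the check on the treatment is not reported here.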

Additional observations from a re-analysis of the deposited data

How the results depend on the processing

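No Wnt gene passed under any scaling, filter, tool or single left-out library tried, and with both libraries of number 3 left out, in the fit with the replicate block, 1 (lrp5) did. That setting called 392 of all rows, those without number 2 and number 4 called 9 and 12, DESeq2 called 1 without the block and 72 with it, and the blocked likelihood ratio test of edgeR called 104. The block in the quasi-likelihood test changed no call among the Wnt genes, and their median with it was -0.24. The median was -0.32 with total-count scaling, where 41 of 53 were negative against 63.7% of all rows and the median of all rows was -0.10. It lay between -0.38 and -0.0447 over the left-out libraries and was -0.31 without number 3 in the blocked fit. Among the authors' table rows 24 of 33 were negative, a smaller set of genes, against 48.7% of all those rows. With a number left out, fewer pairs are asked for. Wnt genes lower in both remaining pairs numbered 29 without number 2 (30.7% of all rows), 25 without number 3 (34.7%) and 20 without number 4 (23.6%). Of the Hedgehog targets tested, DESeq2 called 1 without and 3 with the block, the blocked likelihood ratio test 4, and the blocked fits without number 3 and number 4 called 4 and 2. Of the other pathway genes, the blocked likelihood ratio test called 1 and the blocked fit without number 3 called 3.

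Signs turned for 16 named genes. The log2 fold change of wnt3a was -0.00266 with total-count scaling, -0.00196 with no filter, -0.0898 by limma-voom, and with the block -0.00805 by the quasi-likelihood test, -0.11 by DESeq2 and -0.0430 by the likelihood ratio test. That of wif1 was -0.0250 with total-count scaling. With 1 library left out, values ranged from -0.20 to 0.38 for wif1, -0.63 to 0.66 for wnt3a, -0.45 to 0.16 for ctnnb1, -1.20 to 0.25 for rspo3, -0.45 to 0.21 for tcf7l1a, -0.73 to 0.32 for notum1a, -0.48 to 0.11 for sfrp1a, -0.36 to 0.13 for wnt5b and -0.69 to 0.0676 for dkk1b. They ranged from -0.0710 to 0.72 for fzd7a, -0.0506 to 0.55 for rspo1, -0.0262 to 0.42 for wnt5a, -0.42 to 0.0126 for axin1, -0.47 to 0.000256 for axin2, and -0.56 to 0.0417 for lef1. In the blocked fits with a number left out, rspo1 was at -0.22, wif1 at -0.11 and wnt5b at 0.16 without number 2, rspo2 at 0.0813 and wnt3a at -0.0977 without number 3, and notum1a at 0.18, wif1 at -0.0568 and wnt3a at -0.54 without number 4. The cause of these changes was not tested.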
